A study of Mus musculus with 8 samples.

Results

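D2A1-m1 is a metastatic subline of D2A1, a mammary carcinoma line of BALB/c mouse origin, and the comparison described here sets the RNA of D2A1-m1 cells against that of the parental D2A1 cells. It sets 2 arrays of D2A1-m1 against 3 of D2A1, chosen by their cell line label from the 8 arrays in the series. The other 3 arrays hold D2A1-m2, a second subline selected separately from D2A1. They serve to show where D2A1-m1 differs from another lung-selected descendant. They also enter the fit, where they add to its estimates of spread and batch. According to the methods, D2A1-m1 came from D2A1 cells that grew in the mammary fat pad of a single immunocompetent BALB/c mouse, were recovered from its lungs, and were then passaged repeatedly from tail vein to lung, each time through a single mouse. D2A1-m1 therefore stands for 1 selection history, and the spread between its arrays is that of cultures of 1 line. All the lines were grown on plastic in the same serum-supplemented medium without further treatment, and the methods call the cultures independent biological replicates. Batch 1 held D2A1-m1 replicate 1 with D2A1 replicates 1 and 2, and batch 2 held D2A1-m1 replicate 2 with D2A1 replicate 3.

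To reach the lung a carcinoma cell has to detach, cross vessel walls and grow in a foreign matrix. Matrix proteins and their receptors, the actin cytoskeleton that pulls on them, and secreted factors that act on neighbouring stroma are the gene groups most often examined in such lines. Bulk RNA from a culture gives an average over its cells, so a change in level per cell and a change in the share of cells of a kind cannot be told apart here.

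Levels are given as background-corrected, quantile-normalized probe intensities on a log2 scale, and a change is the fitted difference D2A1-m1 minus D2A1 on that scale with the batch in the model, given with its standard error (SE). A gene was called risen or fallen at a Benjamini-Hochberg adjusted p under 0.05 in limma, over the 9017 genes tested, together with a change of at least 1.5-fold. By that rule 1313 genes were called, which is 14.6% of those tested, with 696 risen (7.72%) and 617 fallen (6.84%). The rises ran to larger sizes, since 57 genes rose and 31 fell by at least 4-fold and 10 rose and 2 fell by at least 16-fold. A gene was read from the probe of largest interquartile range over the arrays. Of the called genes 563 had other kept probes, and for 335 of these at least 1 other probe changed by less than 1.5-fold or in the opposite direction. The number called leaned on both D2A1-m1 arrays, being 498 without D2A1-m1 replicate 1 and 717 without D2A1-m1 replicate 2. The fit used all 8 arrays, and with only the 5 arrays of D2A1-m1 and D2A1 it called 993 genes (534 risen, 459 fallen). Where a probe was detected on only some arrays of its dimmer line, the change is given as fitted, against levels near the floor. Besides those so marked below, Actg2, Angptl4, Aqp1, Muc1, Sox9 and Wnt10a were detected on 1 of 3 D2A1 arrays, and Cd1d1, Ctsw, F11r, Gsta2, Macc1, Mapt and Slc40a1 on 1 of the 2 D2A1-m1 arrays. Median scaling in place of quantile normalization moved the median change of all genes to 0.13, against 0.01 with quantile normalization, and the called genes then numbered 1073 risen and 378 fallen.

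**Figure D1:**
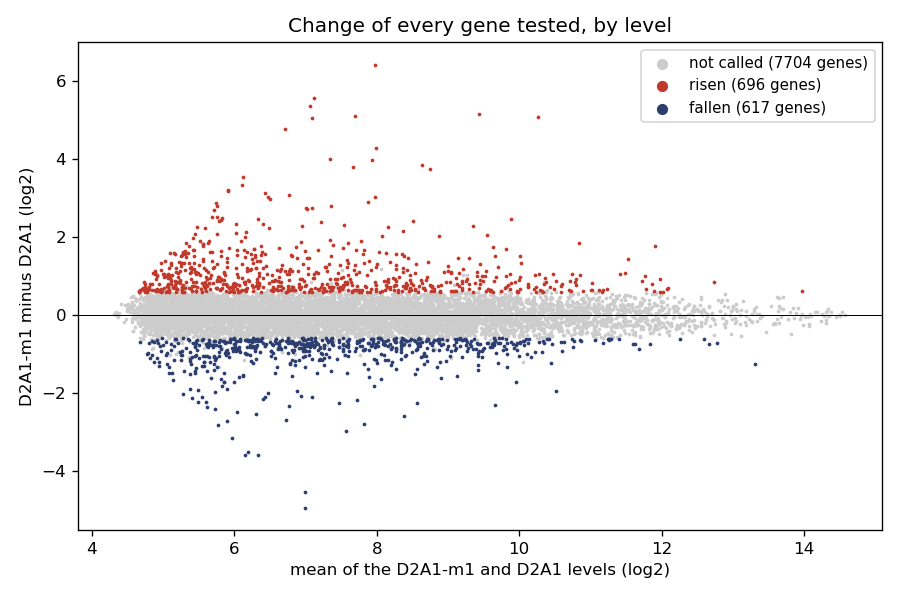
Change of each of the 9017 genes tested in D2A1-m1 relative to D2A1 (vertical axis, log2) against the mean of the levels in both lines (horizontal axis, log2), with 1 point per gene coloured by its call. The 696 risen genes reach further from 0 than the 617 fallen genes.

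The arrays were of like quality, since a detection p of at most 0.01 was reached by 13618 and 14625 probes in D2A1-m1 and by 13419 to 14387 probes in D2A1. Markers of mammary epithelium were only partly detected. Of 16 mammary epithelial markers on the array, Krt8, Krt18 and Erbb2 were detected on every array of both lines, whereas 10 markers, among them Epcam, Cdh1, Krt5, Krt14, Krt19, Esr1 and Pgr, were detected on none of the 8 arrays. Of 11 markers of lung epithelium, the tissue from which D2A1-m1 had been recovered, all 11 were undetected on both D2A1-m1 arrays, including the surfactant genes Sftpa1, Sftpb, Sftpc and Sftpd, and their summed linear signal was 243 to 271 in D2A1-m1 and 252 to 267 in D2A1. Of 15 leukocyte markers 12 were undetected in D2A1-m1, including Ptprc, Itgam, Adgre1 and Csf1r, and the higher leukocyte sum in D2A1-m1 (4512 to 5443, against 560 to 671 in D2A1) lay mostly in Arhgdib. Of 13 fibroblast markers 10 were undetected in D2A1-m1, including Dcn, Lum, Col1a1, Col1a2 and Col3a1, with sums of 688 to 697 in D2A1-m1 and 420 to 440 in D2A1. Of the fibroblast markers detected, Fbln1 rose by 1.42 and Pdgfra by 0.77, the call of Pdgfra being lost without D2A1-m1 replicate 1, in either batch alone and on the authors' processed values. Pdgfrb, detected on both D2A1-m1 arrays and on 1 of 3 D2A1 arrays, changed by 0.70 and was not called. The part of the cell types behind these sums in any change given below was not tested. For pericytes and smooth muscle 8 of 10 markers were undetected in D2A1-m1 (sums of 496 to 625 in D2A1-m1 and 401 to 1013 in D2A1), and for endothelium 9 of 11 (390 to 400 in D2A1-m1 and 597 to 730 in D2A1). No erythroid or adipocyte marker was detected on any array.

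Some genes had a probe that was detected on every array of one line and on no array of the other. Not all were sharp contrasts, since some lay near the detection limit in both lines, as did Ppt2 (change 0.09) and Dennd1c (-0.22). Over all genes, every D2A1-m1 array was above every D2A1 array for 19.6% and below every one for 19.8%. There were 162 genes detected on both D2A1-m1 arrays and on no D2A1 array (1.8% of those tested), and 122 of them were called risen. Conversely, 83 genes were detected on all 3 D2A1 arrays and on neither D2A1-m1 array (0.92%), and 67 of them were called fallen. With the probe of highest mean for each gene the counts were 139 and 71 in place of 162 and 83. For such genes a fold is given as a lower bound, computed against the lowest signal that counted as detected on each array of the dimmer line or the probe's own signal where that was higher. D2A1-m2 was detected on all 3 arrays for 99 of the 162 genes seen in D2A1-m1 alone, and on no array for 15. Of the 83 genes seen in D2A1 but not in D2A1-m1, D2A1-m2 was detected on no array for 37 and on all 3 for 17.

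The CpG content of promoters, which the choice of these genes did not use, is given as a description without a test. RefSeq (build GRCm38.p6) gave a promoter window of 300 bases, from 250 bases before to 50 after the listed start of the gene, for 129 of the 162 genes detected in D2A1-m1 and not in D2A1. Of these 129 windows 46 (35.7%) held fewer than 10 CG dinucleotides, as did 17 of 69 (24.6%) among genes detected in D2A1 and not in D2A1-m1 and 1061 of 7399 (14.3%) among all genes tested with a window. For risen genes the share was 27.9% (153 of 549) and for fallen genes 16.6% (85 of 512). Over all 27025 RefSeq genes in the table, most of them not detected here or not on the array, it was 56.1%. The windows of Id4, Thbs2 and Chst1, 3 of the genes detected in D2A1-m1 and on no D2A1 array, and of Ptx3, detected in D2A1 and on no D2A1-m1 array, are shown to let the range be read, 5′ to 3′ on the gene's strand, with CG dinucleotides in capitals.
Id4 (chr13:48260866-48261165, plus strand, 39 CG): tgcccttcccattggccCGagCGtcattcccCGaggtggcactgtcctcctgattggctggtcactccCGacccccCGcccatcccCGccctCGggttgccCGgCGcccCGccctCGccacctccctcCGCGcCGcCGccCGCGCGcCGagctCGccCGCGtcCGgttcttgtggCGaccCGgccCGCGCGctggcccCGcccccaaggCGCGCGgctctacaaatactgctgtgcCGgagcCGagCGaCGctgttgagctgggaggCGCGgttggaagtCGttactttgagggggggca
Thbs2 (chr17:14694213-14694512, minus strand, 4 CG): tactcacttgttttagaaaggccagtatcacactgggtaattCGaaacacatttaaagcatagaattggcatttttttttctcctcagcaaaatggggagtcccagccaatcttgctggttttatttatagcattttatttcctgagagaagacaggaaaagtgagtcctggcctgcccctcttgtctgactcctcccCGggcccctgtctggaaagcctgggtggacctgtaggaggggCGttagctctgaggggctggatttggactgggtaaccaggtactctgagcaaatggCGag
Chst1 (chr2:92600867-92601166, plus strand, 1 CG): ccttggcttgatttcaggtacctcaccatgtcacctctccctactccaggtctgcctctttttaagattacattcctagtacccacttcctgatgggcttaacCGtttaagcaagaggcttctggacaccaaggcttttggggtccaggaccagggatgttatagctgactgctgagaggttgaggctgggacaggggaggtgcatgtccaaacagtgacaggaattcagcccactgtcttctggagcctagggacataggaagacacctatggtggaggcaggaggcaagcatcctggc
Ptx3 (chr3:66219637-66219936, plus strand, 8 CG): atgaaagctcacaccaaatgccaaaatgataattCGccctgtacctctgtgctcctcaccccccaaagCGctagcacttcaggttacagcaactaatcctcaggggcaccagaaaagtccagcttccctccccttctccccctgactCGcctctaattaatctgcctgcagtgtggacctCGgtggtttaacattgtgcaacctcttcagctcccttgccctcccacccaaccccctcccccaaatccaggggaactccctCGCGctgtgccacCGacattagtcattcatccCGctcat
The window of Id4 is rich in CG and the other 3 hold fewer than 10, so that genes undetected in one line and high in the other had windows of both kinds.

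Fgf7, or keratinocyte growth factor, a stromal ligand of an epithelial FGF receptor isoform, had the largest rise of all called genes. Its level was 10.90 and 11.50 in D2A1-m1, against 4.91, 4.75 and 4.57 in D2A1, where it was not detected. The groups were far apart and the rise was at least 59.3-fold (adjusted p = 1.19e-07). Thbs2, the matricellular protein thrombospondin 2, was at 9.79 and 10.003 in D2A1-m1 and at 4.34, 4.32 and 4.34 in D2A1, at least 24-fold higher (adjusted p = 7.17e-08). Id4, a member of the Id family that holds back basic helix-loop-helix factors, was at 9.99 and 9.45 in D2A1-m1 and at 4.41, 4.53 and 4.31 in D2A1 (at least 21.2-fold, adjusted p = 7.17e-08). Both genes were at the array's floor in every D2A1 culture. The tropomyosin gene Tpm2 was at 9.59 and 9.63 in D2A1-m1 and at 4.47, 4.63 and 4.64 in D2A1 (at least 19.6-fold), but its other kept probe changed by only 0.83. Chst1, a keratan sulphate sulphotransferase, was at 9.27 and 8.91 in D2A1-m1 and at 4.32, 4.41 and 4.29 in D2A1 (at least 13.7-fold, adjusted p = 7.59e-08). All of these genes were also detected on all 3 D2A1-m2 arrays. The D2A1-m2 means were 10.60 for Fgf7, 8.83 for Thbs2, 8.83 for Id4, 9.58 for Tpm2 and 7.12 for Chst1.

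Among the genes detected on at least 1 D2A1 array, large rises were those of Arhgdib, Itgbl1 and Mgp. Arhgdib, best known from blood cells, was at 11.90 and 12.11 in D2A1-m1 and at 6.24, 7.72 and 6.66 in D2A1, a change of 5.14 ± 0.35 that the other kept probe gave as 1.00. Its mean in D2A1-m2 was 11.83. Itgbl1, a secreted protein with integrin-like repeats, was at 10.16 and 10.31 in D2A1-m1 and at 4.84, 5.80 and 4.85 in D2A1 (change 5.09 ± 0.26, and 2.64 by its other probe), and was detected on 1 of the 3 D2A1 arrays, so that the change is a fitted value against levels near the floor. In both cases the D2A1-m1 arrays were close to each other and D2A1 replicate 2 was the highest of the parental cultures. Mgp, an inhibitor of soft tissue calcification, reached 12.80 and 12.84 in D2A1-m1, against 7.62, 7.38 and 8.14 in D2A1 (change 5.07 ± 0.19). AA467197 was at 9.53 and 9.14 in D2A1-m1 and at 4.80, 5.51 and 5.76 in D2A1 (change 4.0 ± 0.31). Akr1c18, a steroid-metabolizing aldo-keto reductase, was at 9.97 and 9.85 in D2A1-m1 and varied widely in D2A1 (6.66, 4.93 and 6.26), with a change of 3.97 ± 0.43. The remaining large rises were Lgals7 (4.27 ± 0.27, and 1.2 to 3.77 by its other probes), an epithelial galectin, and Pdgfrl (3.86 ± 0.17), a receptor-like gene.

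Falls of the same order were fewer. Auts2, a chromatin and cytoskeletal regulator studied mainly in neurons, was at 4.92 and 4.53 in D2A1-m1, where it was not detected, and at 9.28, 9.34 and 9.20 in D2A1, a fall of at least 16.3-fold (adjusted p = 7.59e-08). Ptx3, a soluble pattern recognition molecule, was at 4.50 and 4.42 in D2A1-m1, against 9.61, 10.42 and 8.54 in D2A1 (at least 19.5-fold lower, adjusted p = 1.26e-05). Neither gene was detected in D2A1-m1, and the D2A1 cultures differed more from each other for Ptx3 than for Auts2. Gli2, the main transcriptional activator of Hedgehog signalling, was at 4.31 and 4.43 in D2A1-m1 and at 7.80, 7.83 and 8.15 in D2A1 (at least 6.43-fold lower). Wtip, a LIM protein of cell junctions that binds Hippo pathway components, was at 4.32 and 4.48 in D2A1-m1 and at 7.54, 7.54 and 7.56 in D2A1 (at least 4.95-fold lower). Pdzrn3, a ubiquitin ligase, was at 4.36 and 4.35 in D2A1-m1 and at 7.31, 7.33 and 6.90 in D2A1 (at least 3.84-fold lower). None of Auts2, Gli2, Wtip and Pdzrn3 was detected on a D2A1-m2 array either. The milk gene Csn3 and the junctional gene Shroom2 were also undetected in D2A1-m1, at least 7.36-fold and 6.5-fold lower. Ydjc fell by 2.97 ± 0.15, and the small leucine-rich proteoglycans Bgn and Ogn fell by 2.78 ± 0.23 and 2.57 ± 0.17. All 24 of the largest rises and falls kept their call when any 1 of the 8 arrays was left out, which their choice by size of change favours.

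**Figure D2:**
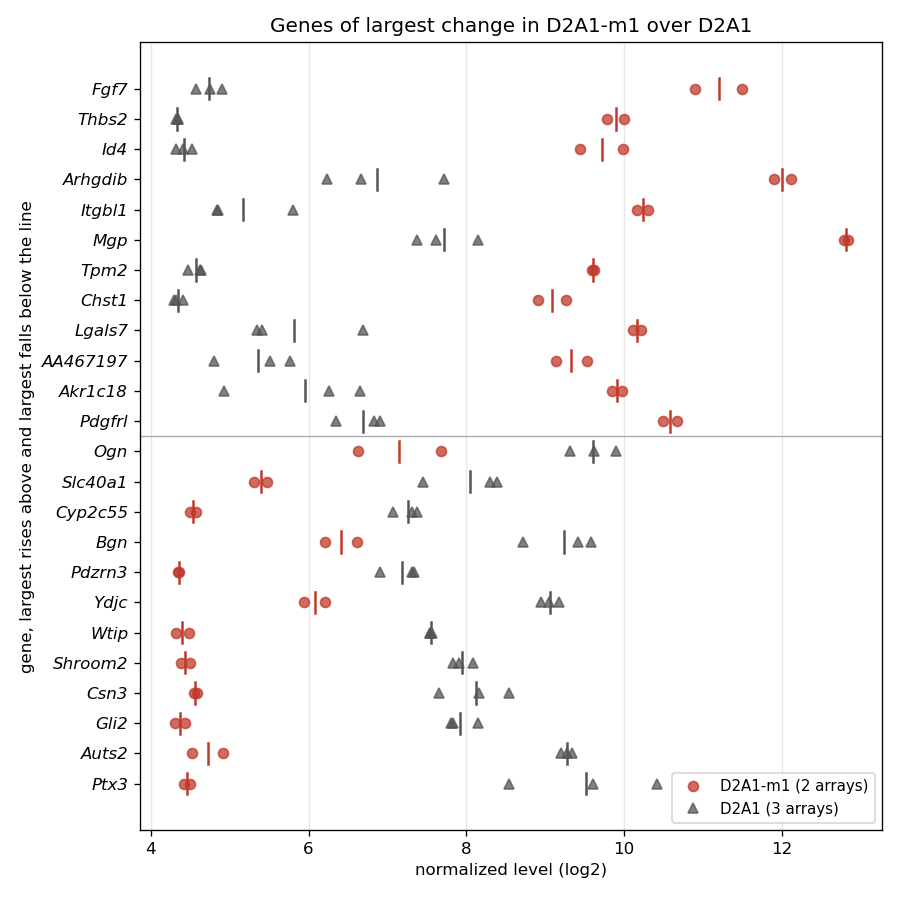
Normalized level (horizontal axis, log2) of the 12 largest rises and, below the line, the 12 largest falls on each of the 2 D2A1-m1 arrays (circles) and 3 D2A1 arrays (triangles), with vertical bars at the mean of each line. The points of the lines do not overlap for any of the 24 genes, which their choice by size of change favours. Over all genes every D2A1-m1 array was above every D2A1 array for 19.6% and below every one for 19.8%.

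Lists of genes by function, given beside the 14.6% called over all genes tested, are described next in the order matrix, receptors, cytoskeleton, signals and metabolism. The lists were written with earlier results of these data known, so a share above 14.6% may come from the choice of members. The shares are a description and were not tested. Members of matrix lists moved in both directions. Among 12 matricellular genes 4 rose and 2 fell, among 13 proteoglycan and sulphotransferase genes 3 rose and 4 fell, and among 9 laminin, fibronectin and basement membrane genes 2 rose and 3 fell. Fn1, which encodes fibronectin, was at 6.43 and 6.34 in D2A1-m1 and at 7.54, 8.19 and 6.89 in D2A1, a fall of 1.08 ± 0.24, but its other probe gave -0.29 and the call was lost without D2A1-m1 replicate 1. Ccn2, a matricellular target of TGF-beta and YAP, changed by -1.05 ± 0.26 with overlapping groups (8.37 and 7.80 in D2A1-m1, against 9.78, 10.01 and 8.13 in D2A1), and it too lost its call without D2A1-m1 replicate 1. Without that array 0 basement membrane genes and 0 matricellular genes were called fallen, and 1 and 3 were called risen. Of the 19 collagens and collagen-modifying enzymes 3 rose and 2 fell, the number fallen being 1 without either D2A1-m1 array, that is with each left out in turn. Col18a1, a basement membrane collagen, was at 7.84 and 7.34 in D2A1-m1 and at 4.99, 5.60 and 5.58 in D2A1 (change 2.23 ± 0.22). Col6a1, a microfibrillar collagen, was at least 1.52-fold higher in D2A1-m1. The heparan sulphate proteoglycan gene Sdc3 was at 5.53 and 5.66 in D2A1-m1 and at 8.0, 8.13 and 7.68 in D2A1, a fall of 2.33 ± 0.16 that no single array decided.

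Matrix proteases and their inhibitors had 4 members risen and 3 fallen of 19 tested, and these were 2 and 1 without D2A1-m1 replicate 1 and 3 and 1 without D2A1-m1 replicate 2. Mmp10, or stromelysin 2, was at 7.43 and 6.69 in D2A1-m1 and at 8.73, 8.83 and 8.63 in D2A1, a fall of 1.59. Mmp14, a membrane-bound collagenase, changed by -0.65 and its other probe by -0.22, and Mmp13 by -1.23 and -0.41. The calls of both were lost without D2A1-m1 replicate 1, without D2A1-m1 replicate 2 and without D2A1 replicate 3, and that of Mmp14, whose groups overlapped, also without D2A1 replicate 2. The inhibitor Timp2 rose by 1.04 and the aggrecanase Adamts4 by 1.37.

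Integrins were among the lists in which no member was called fallen, where 6.84% of all genes fell. Of 9 tested 4 rose (3 without either D2A1-m1 array) and the list median was 0.36, against 0.01 over all genes. Apart from Itgbl1, which encodes no integrin subunit, these were Itgb4, Itgb7 and Itga3. Itgb4, the hemidesmosome subunit that pairs with the alpha 6 chain, was at 6.41 and 5.75 in D2A1-m1 and at 4.38, 4.78 and 4.42 in D2A1, where it was not detected (at least 1.71-fold). Itgb7, a leukocyte homing subunit, was at 5.81 and 6.09 in D2A1-m1 and at 4.32, 4.53 and 4.31 in D2A1 (at least 1.56-fold). Itga3, a laminin receptor chain, changed by 0.59 and was called only narrowly, losing its call without either D2A1-m1 array, without D2A1 replicate 1 or 3, and without D2A1-m2 replicate 3. Itga5, Itga6, Itgav, Itgb1 and Itgb5 were not called. In the list of cell-cell adhesion and tight junction genes 5 of 21 rose and 5 fell, and without D2A1-m1 replicate 1 the numbers were 1 and 4 and without D2A1-m1 replicate 2 they were 3 and 3. The tight junction genes F11r (-1.04) and Cldn1 (at least 1.71-fold lower) fell, while Vcam1, an endothelial-type adhesion molecule for leukocyte integrins, rose by 2.29 ± 0.24. Krt8, a simple epithelial keratin, was at 9.72 and 9.23 in D2A1-m1 and at 6.06, 6.95 and 6.45 in D2A1 (change 3.03 ± 0.24), and its partner Krt18, at -0.29, was not called.

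The contractile genes that were called went one way. Of 22 tropomyosin and contractile genes 9 rose and 0 fell, with a median of 0.46. Over all genes 7.72% rose and 6.84% fell. After Tpm2 the largest was the smooth muscle actin gene Actg2, at 7.44 and 6.30 in D2A1-m1 and at 5.38, 6.27 and 4.55 in D2A1 (change 1.66), in which the lower D2A1-m1 array and the highest D2A1 array nearly meet. Its call was lost without the batch term, in batch 1 alone, when the replicate block stood for the batch and on the authors' processed values. The calponin Cnn2 changed by 1.22 and the tropomyosin Tpm1 by 1.01. The count depended on the D2A1-m1 arrays, being 3 without replicate 1 and 5 without replicate 2, and Cnn2 was among the calls lost without replicate 1. Of 37 actin filament regulators 6 rose and 2 fell. Gsn, or gelsolin, which severs filaments, rose by 1.53 and Capg, a capping protein, by 1.34, whereas Tmsb4x, which holds monomeric actin, was at 4.33 and 4.27 in D2A1-m1 and at 6.08, 6.06 and 5.80 in D2A1 (at least 1.67-fold lower). Of the caveolar genes 4 of 9 rose (3 without D2A1-m1 replicate 1 and 2 without replicate 2) and 1 fell, and the members parted by subunit: Cavin1, the coat protein needed for caveolae, was at 9.42 and 9.22 in D2A1-m1 and at 6.21, 6.60 and 6.46 in D2A1 (change 2.91), whereas Cavin2 was at 8.61 and 9.01 in D2A1-m1 and at 10.07, 10.09 and 9.95 in D2A1 (change -1.27). Of the microtubule genes 1 of 17 rose (Map4) and 1 fell (Mapt, at -1.08), the fall being lost without either D2A1-m1 array.

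**Figure D3:**
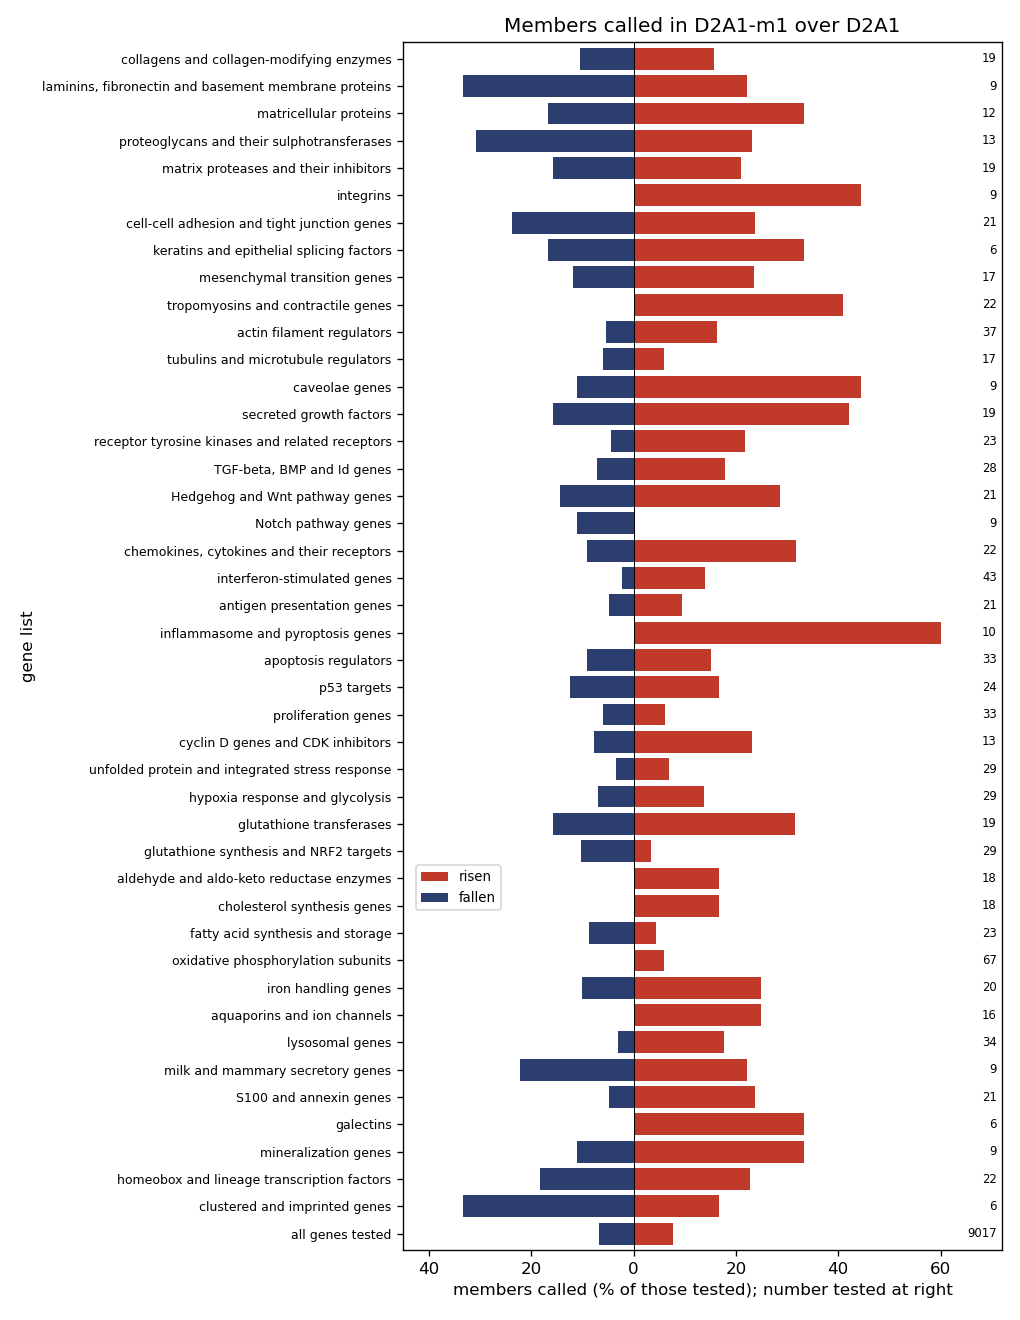
Percentage of tested members called risen (right of 0) and called fallen (left of 0) in D2A1-m1 relative to D2A1 for the gene lists described here and others, with the number of members tested at the right and all 9017 genes in the bottom row. No member was called fallen among the contractile, integrin and inflammasome genes, where 6.84% of all genes were called fallen. The same held for other lists, among them the galectins and the oxidative phosphorylation subunits. The share called in the oxidative phosphorylation list lies below that over all genes.

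Secreted growth factors were called in 11 of 19 cases, with 8 risen and 3 fallen and a median of 0.54. Beside Fgf7, Angpt1, a ligand of the endothelial Tie2 receptor, was at 6.33 and 6.84 in D2A1-m1 and at 4.58, 4.63 and 4.84 in D2A1, where it was not detected (at least 2.42-fold). Angptl4, a lipoprotein lipase inhibitor, rose by 2.47, although its other kept probe gave -0.50. Pdgfc, a ligand of PDGF receptors, was at 4.42 and 4.38 in D2A1-m1 and at 6.55, 6.87 and 5.65 in D2A1 (at least 2.17-fold lower). The prolactin-family genes Prl2c2 and Prl2c3 were also called fallen. Their sequences are close, and whether their probes share signal was not tested. Both lost their call without D2A1-m1 replicate 1. The number of growth factors risen was 3 without D2A1-m1 replicate 1, 3 without D2A1-m1 replicate 2 and 4 without D2A1 replicate 3. Receptor tyrosine kinases and related receptors had 5 risen (3 without D2A1-m1 replicate 1) and 1 fallen of 23, with Axl at 1.45 (0.29 by its other probe) and the endothelial-type receptor gene Flt1 at least 1.44-fold lower. Flt1 lost its call without D2A1-m1 replicate 1.

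In the TGF-beta, BMP and Id list 5 of 28 rose (2 without D2A1-m1 replicate 1 and 3 without replicate 2) and 2 fell, and the ligands Tgfb1, Tgfb2 and Tgfb3 and the signal transducers Smad1, Smad2, Smad3 and Smad5 were not called. Besides Id4, Id2 rose by at least 1.5-fold, a call lost without D2A1-m1 replicate 1, while Id1 and Id3 were not called. In the Hedgehog and Wnt list 6 of 21 rose (2 without D2A1-m1 replicate 1 and 4 without replicate 2) and 3 fell. Gli2 was the only Hedgehog member called. Notum, an esterase that inactivates Wnt ligands, was at 7.09 and 7.07 in D2A1-m1 and at 5.01, 4.69 and 5.18 in D2A1 (change 2.11 ± 0.17, and 0.49 to 0.55 by its other probes) and was detected on 1 of the 3 D2A1 arrays, and Nkd2, an inhibitor within the pathway, rose by 1.5. Ctnnb1, which encodes beta-catenin, was called at -0.88, but its other kept probes gave -0.13 to 0.40, so the direction rests on the probe, and the call was lost without either D2A1-m1 array, without D2A1 replicate 1 or 3 and without D2A1-m2 replicate 2. Among 9 Notch pathway genes 1 was called, Hes6 at -0.59, and 0 were called without either D2A1-m1 array.

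Inflammasome and pyroptosis genes were called in 6 of 10 cases, all risen, with a median of 0.83. Casp1, the protease that matures interleukin 1 beta and interleukin 18, was at 9.33 and 9.80 in D2A1-m1 and at 5.78, 6.17 and 5.36 in D2A1 (change 3.80 ± 0.23, adjusted p = 9.05e-06). Gsdmd, the pore-forming protein it cleaves, was at 8.47 and 8.06 in D2A1-m1 and at 5.2, 5.71 and 4.94 in D2A1 (change 3.09 ± 0.18), a fitted value against levels near the floor, since it was detected on 1 of the 3 D2A1 arrays. Aim2, a cytosolic DNA sensor that recruits caspase 1, was at 7.18 and 7.12 in D2A1-m1 and at 5.02, 5.31 and 5.17 in D2A1, where it was not detected (at least 3.58-fold). The lines did not overlap for any of these 3 genes, which were named for their large rises. Over all genes every D2A1-m1 array was above every D2A1 array for 19.6%. Casp4 was at least 2.19-fold higher, with other probes at 0.12 to 1.78. With either D2A1-m1 array left out 5 members were called risen.

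Interferon-stimulated genes as a list were close to the background, with 6 of 43 risen and 1 fallen and a median of 0.10. Phf11d was at 8.49 and 9.0 in D2A1-m1 and at 5.85, 5.94 and 6.08 in D2A1 (change 2.80 ± 0.26). Ifi27l2a was at 10.60 and 11.74 in D2A1-m1 and at 8.72, 7.62 and 9.48 in D2A1 (change 2.47 ± 0.44), a call lost without D2A1-m1 replicate 2. Isg15 (-0.18), Irf7 (0.20), Ifit2 (0.30), Ifit3 (1.04), Mx2 (-0.47) and Rsad2 (-1.21) did not pass the test. Single arrays moved this list far, with 3 risen without D2A1-m1 replicate 1, 2 without D2A1-m1 replicate 2, 10 without D2A1 replicate 3 and 3 without D2A1-m2 replicate 2 or 3, and with 6 fallen without D2A1 replicate 2. Of 21 antigen presentation genes 2 rose (H2-M3 and Tapbp) and 1 fell (Cd1d1), with 1 risen and 0 fallen without D2A1-m1 replicate 1 and 0 of each without D2A1-m1 replicate 2. Among 22 chemokine, cytokine and receptor genes 7 rose (2 without D2A1-m1 replicate 1 and 3 without replicate 2) and 2 fell. Tnfrsf11b, the decoy receptor osteoprotegerin, was at 10.63 and 10.55 in D2A1-m1 and at 6.89, 7.36 and 6.49 in D2A1 (change 3.73 ± 0.18), and Il34, a ligand of the CSF1 receptor, was at least 1.94-fold higher. Ccl17, a chemokine for CCR4-bearing T cells, was at 4.54 and 5.12 in D2A1-m1 and at 7.02, 7.51 and 7.21 in D2A1 (at least 4.02-fold lower).

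The lists of proliferation genes, stress response genes and oxidative phosphorylation subunits lay below the 14.6% called over all genes. Of 33 proliferation genes 2 rose (Ccna2 at 0.80 and Foxm1 at 0.73) and 2 fell (Rrm2 at -0.90 and Ccne1 at -0.82), with a median of 0.04. Of 29 unfolded protein and integrated stress response genes 2 rose (Nupr1 at 1.51 and Creld2 at 0.66) and 1 fell (Sdf2l1 at -0.77). Of 67 oxidative phosphorylation subunits 4 were called risen and 0 fallen, with a median of -0.02. Without D2A1-m1 replicate 1 the proliferation list had 0 genes risen and 1 fallen, and the stress response and oxidative phosphorylation lists had 0 calls. Without D2A1-m1 replicate 2 the proliferation list had 1 risen and 1 fallen. The 4 called subunits were Cox7b, Atp5k, Ndufab1 at 1.07 and Ndufb8 at 0.79, but the other kept probes of Ndufab1 and Ndufb8 gave -0.24 to -0.19 and -0.13. Of 13 cyclin D genes and inhibitors of cyclin-dependent kinases 30.8% were called, with 3 risen and 1 fallen, and without either D2A1-m1 array 1 was risen and 0 fallen. Ccnd1, the cyclin D1 gene, was at 8.76 and 8.53 in D2A1-m1 and at 7.13, 7.18 and 6.72 in D2A1, a rise of 1.68 ± 0.13 that no single array decided. The inhibitor genes Cdkn2a and Cdkn2b were called at 0.81 and 0.72 and Ccnd2, the cyclin D2 gene, at -0.87, and these 3 calls were lost without either D2A1-m1 array. Among 33 apoptosis regulators, of which 24.2% were called, 5 rose (3 without D2A1-m1 replicate 1) and 3 fell (0 without replicate 1 and 1 without replicate 2), with Traf1, a TNF receptor adaptor, at least 2.49-fold higher and Dap at 1.68.

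Detoxifying and transport genes gave some of the larger metabolic changes. Of 19 glutathione transferases 6 rose and 3 fell, and these were 1 and 1 without D2A1-m1 replicate 1 and 2 and 1 without D2A1-m1 replicate 2. Gsta1 was at 6.80 and 5.68 in D2A1-m1 and at 7.87, 10.15 and 8.08 in D2A1 (change -2.26 ± 0.52), and Gsta2, whose sequence is close to it, changed by -2.0. Both lost their call without either D2A1-m1 array and without D2A1 replicate 3, and D2A1 replicate 2 was far above the other parental cultures. Aldh3a1, an aldehyde dehydrogenase, was at 9.54 and 9.84 in D2A1-m1 and at 6.93, 7.85 and 7.16 in D2A1 (change 2.40 ± 0.26). The iron exporter gene Slc40a1 was at 5.31 and 5.47 in D2A1-m1 and at 7.45, 8.30 and 8.40 in D2A1 (change -2.69 ± 0.26), while 5 of the 20 iron handling genes rose (2 without either D2A1-m1 array), among them the ferroxidase gene Cp at 1.73 (0.25 to 0.51 by its other probes). The water channel gene Aqp1 was at 7.14 and 9.98 in D2A1-m1 and at 4.94, 4.68 and 6.76 in D2A1, higher in batch 2 in both lines, with a change of 2.74 ± 0.21 once the batch was in the model. Aqp5 was at 11.48 and 12.18 in D2A1-m1 and at 9.62, 9.50 and 10.45 in D2A1 (change 1.86 ± 0.14).

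In the mineralization list 3 of 9 rose (Mgp, Tnfrsf11b and Ank) and 1 fell (Tuft1), with the same numbers without either D2A1-m1 array. Ank, a transporter that raises extracellular pyrophosphate, was at 10.39 and 10.85 in D2A1-m1 and at 8.17, 8.09 and 9.16 in D2A1 (change 2.04). Of 9 milk and mammary secretory genes 2 rose (Xdh and Muc1, the call of Xdh being lost without D2A1-m1 replicate 2) and 2 fell (Csn3 and Wfdc2). Csn3, which encodes kappa-casein, was at 4.58 and 4.54 in D2A1-m1 and at 8.16, 7.66 and 8.54 in D2A1.

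Transcription factors of the homeobox and lineage list had 5 of 22 risen and 4 fallen. Sox9, a stem and ductal cell factor, was at 6.44 and 6.63 in D2A1-m1 and at 4.85, 4.42 and 5.30 in D2A1 (change 1.63 ± 0.20), and Klf4 was at 7.07 and 7.14 in D2A1-m1 and at 5.10, 5.93 and 5.29 in D2A1 (change 1.68 ± 0.23). The neighbouring homeobox genes Dlx1 and Dlx2 both fell, by at least 2.83-fold and 1.91-fold, and Dlx1 was at 5.12 and 4.85 in D2A1-m1 and at 6.66, 6.92 and 6.64 in D2A1. Of 17 mesenchymal transition genes 4 rose (2 without either D2A1-m1 array) and 2 fell (0 without D2A1-m1 replicate 1). S100a4, a calcium-binding protein used as a marker of motile mesenchymal cells, was at 10.64 and 10.36 in D2A1-m1 and at 8.83, 8.71 and 8.74 in D2A1 (change 1.75 ± 0.14), while Vim was called at -0.61 and lost its call without D2A1-m1 replicate 1, without D2A1-m1 replicate 2 and without D2A1 replicate 2.

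Whether these changes set D2A1-m1 apart from the other subline was tested by the contrast of D2A1-m1 and D2A1-m2 in the same fit. It called 385 genes (4.27%), of which 180 were higher (2%) and 205 lower (2.27%) in D2A1-m1. Of the 1313 genes called between D2A1-m1 and D2A1, 179 also differed between D2A1-m1 and D2A1-m2 and 1134 did not pass that test. Among the 179 there were 91 risen over D2A1 and higher than in D2A1-m2, and 68 fallen against D2A1 and lower than in D2A1-m2. The 385 depended on single arrays more than the count against D2A1 did, being 50 without D2A1-m1 replicate 1, 32 without D2A1-m1 replicate 2, and 151, 88 and 85 without D2A1-m2 replicates 1, 2 and 3. Scara5, a ferritin-binding scavenger receptor, was at 7.31 and 7.71 in D2A1-m1, at 5.14, 5.23 and 4.77 in D2A1-m2 and at 4.34, 4.31 and 4.30 in D2A1, although its other kept probe changed by 0.01. Ly6c1 was at 8.24 and 8.60 in D2A1-m1, at 6.81, 6.22 and 6.36 in D2A1-m2 and at 5.99, 5.87 and 6.23 in D2A1. Rgcc, a cell cycle regulator induced by complement, was at 8.19 and 8.70 in D2A1-m1, at 6.82, 7.27 and 7.13 in D2A1-m2 and at 5.77, 4.72 and 6.36 in D2A1. In each case D2A1-m1 lay above every array of both other lines, which the choice of these genes by size of difference favours.

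Genes lowest in D2A1-m1 included Tpd52, Macc1, Ctsw and Fhl1. Tpd52, a vesicle trafficking protein often overexpressed in human breast tumours, was at 9.83 and 9.21 in D2A1-m1, at 11.07, 11.18 and 10.99 in D2A1-m2 and at 11.46, 11.57 and 11.49 in D2A1, with a change over D2A1 of -1.95 ± 0.17 that its other probe gave as -0.34. Macc1, a regulator of the MET receptor gene named for its association with metastasis in human colon cancer, was at 5.21 and 5.46 in D2A1-m1, at 6.84, 6.77 and 6.64 in D2A1-m2 and at 7.14, 6.84 and 6.76 in D2A1 (change over D2A1 -1.57 ± 0.15). Ctsw, a cathepsin of cytotoxic lymphocytes, was at 4.72 and 5.17 in D2A1-m1, at 6.21, 6.59 and 6.70 in D2A1-m2 and at 6.49, 6.96 and 6.69 in D2A1. Fhl1, a LIM protein of muscle, was at 4.59 and 4.26 in D2A1-m1, at 7.19, 5.92 and 5.99 in D2A1-m2 and at 7.42, 8.12 and 5.59 in D2A1. D2A1-m1 was below both other lines on all arrays for these genes, which were chosen by size of difference. D2A1-m2 and D2A1 overlapped for Macc1, Ctsw and Fhl1. Map4, a microtubule-binding protein, was detected in D2A1-m1 alone, at 6.06 and 6.07, against 4.69, 4.49 and 4.51 in D2A1-m2 and 4.50, 4.57 and 4.41 in D2A1 (at least 1.69-fold above D2A1 and 1.85-fold above D2A1-m2).

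Some genes moved away from D2A1 and yet stood below D2A1-m2. There were 15 genes risen over D2A1 but lower than in D2A1-m2, and 5 (Acot1, Ampd3, Nr1h3, Sox12 and Trim54) fallen but higher. Casp1 was one of the 15, at 11.32, 11.39 and 11.42 in D2A1-m2 (difference D2A1-m1 minus D2A1-m2 of -1.82, adjusted p = 0.0042), whereas its substrate Gsdmd was higher in D2A1-m1 than in D2A1-m2 (difference 1.58). Wnt10a, a Wnt ligand, was at 6.69 and 6.09 in D2A1-m1, at 8.0, 7.64 and 7.37 in D2A1-m2 and at 5.27, 5.0 and 5.75 in D2A1, and its call over D2A1 was lost without D2A1-m1 replicate 1. A further 84 genes were higher and 122 lower than in D2A1-m2 without a call over D2A1. Acta2, the alpha smooth muscle actin gene, was at 8.60 and 7.88 in D2A1-m1, at 10.58, 10.30 and 10.20 in D2A1-m2 and at 8.53, 9.60 and 7.34 in D2A1, so that D2A1-m1 overlapped D2A1 and lay below D2A1-m2 (difference -2.28).

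**Figure D4:**
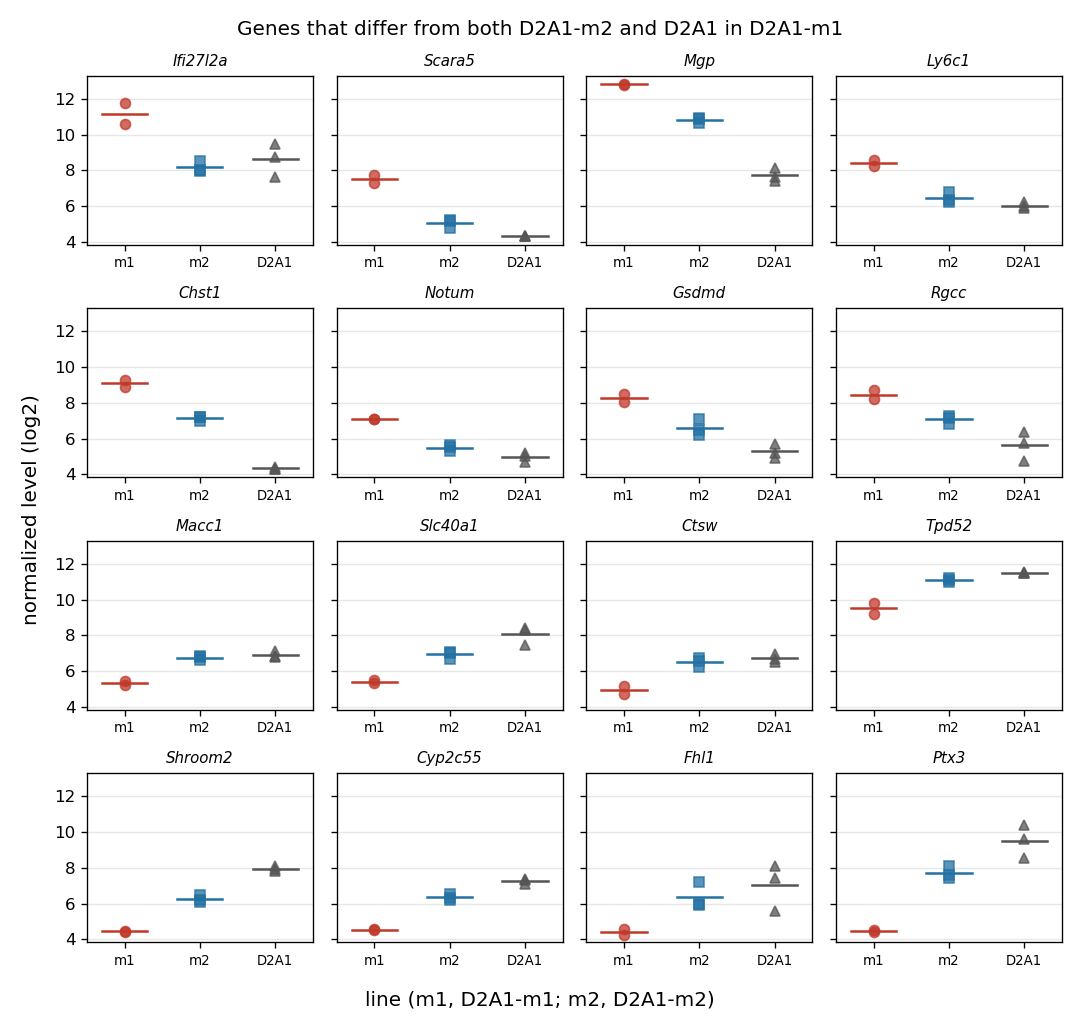
Normalized level (vertical axis, log2) of the 16 genes that differed most from both D2A1-m2 and D2A1 in D2A1-m1, on each array of D2A1-m1 (circles), D2A1-m2 (squares) and D2A1 (triangles), with horizontal bars at the means. The upper 8 genes are highest and the lower 8 lowest in D2A1-m1.

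The changes were spread unevenly by position in the genome. The median change was -0.35 on chromosome 12, -0.33 on chromosome 14 and -0.39 on chromosome 16, against 0.01 over all genes. On these chromosomes 24.3% (75 of 309), 22.8% (67 of 294) and 23.9% (69 of 289) of the genes tested were called fallen, where 6.84% were called fallen over all chromosomes. On chromosome 15 the median was 0.23, with 67 of 359 genes risen (18.7%, against 7.72% over all chromosomes) and 9 fallen. Smaller shifts were seen on chromosome 1 (median -0.20, 14.7% fallen), chromosome 2 (-0.18, 9.75% fallen), chromosome 8 (-0.17) and chromosome 3 (0.15, 12% risen). The batches gave like values, with -0.31 in batch 1 and -0.40 in batch 2 on chromosome 12, -0.33 and -0.31 on chromosome 14, -0.36 and -0.36 on chromosome 16, and 0.27 and 0.24 on chromosome 15.

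The shifts ran along whole chromosomes. When genes were taken in consecutive windows of 15 along a chromosome, the median was below 0 in 20 of 20 windows on chromosome 12, in 19 of 19 on chromosome 14 and in 19 of 19 on chromosome 16, in each batch as well as over both. It was above 0 in 23 of 23 windows on chromosome 15, and in both batches in 21 of them. On chromosome 2 it was below 0 in 46 of 47 windows. These medians are of RNA levels, and DNA copy number was not measured on these arrays. Single genes still went against their chromosome: Itgbl1, Scara5, Rgcc and Phf11d, all risen, lie on chromosome 14, and Ifi27l2a on chromosome 12. Chromosome 15 holds Krt8, Tnfrsf11b, Gsdmd, Ly6c1, Aqp5, Itgb7 and Hoxc6, all risen. Against D2A1-m2, the median difference in D2A1-m1 was -0.27 on chromosome 12, 0.22 on chromosome 15, -0.29 on chromosome 4, -0.19 on chromosome 1 and 0.17 on chromosome 2, and it was 0.03 on both chromosome 14 and chromosome 16. The corresponding medians of D2A1-m2 relative to D2A1, which share the D2A1 arrays, were -0.09 on chromosome 12, 0.04 on chromosome 15, 0.38 on chromosome 4, -0.02 on chromosome 1 and -0.35 on chromosome 2, with -0.36 on chromosome 14 and -0.42 on chromosome 16. No test was made of the chromosome values. The medians over D2A1 kept their sign on every chromosome under each alternative processing run, but their size did not hold. On chromosomes 12, 14, 15 and 16 they were -0.18, -0.14, 0.12 and -0.17 in the authors' processed values. They were -0.073, -0.044, 0.043 and -0.052 when undetected probes were kept, a run over 19057 genes in place of 9017. With median scaling chromosome 15 was at 0.37, where all genes were at 0.13.

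**Figure D5:**
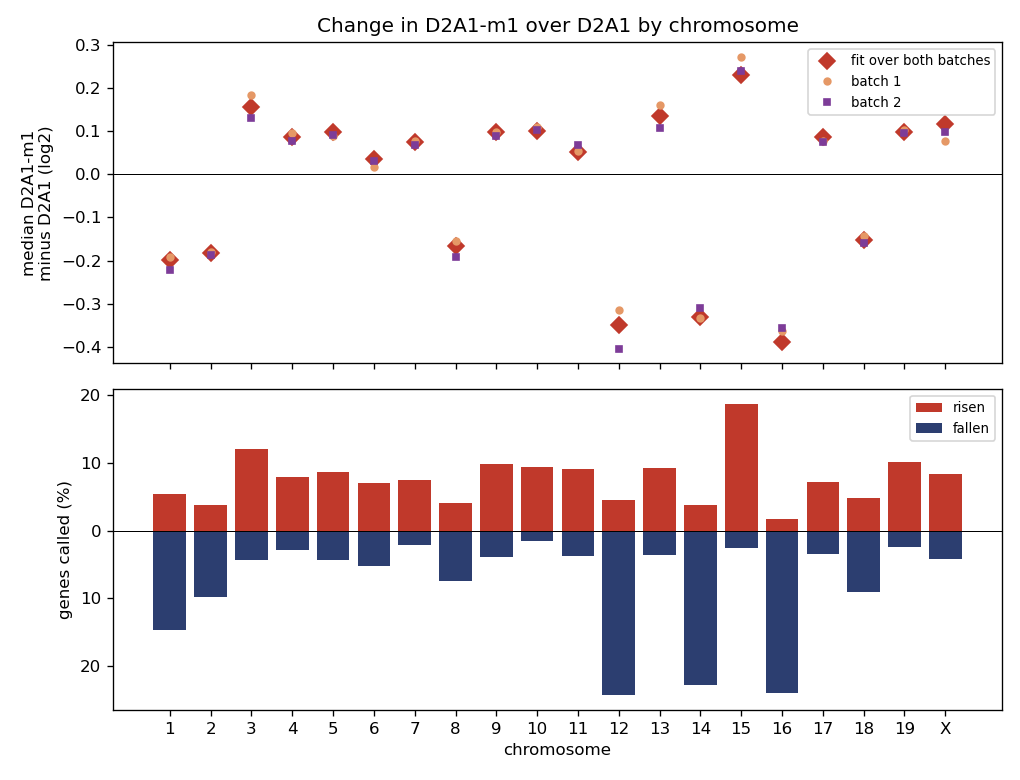
Upper panel, median change in D2A1-m1 relative to D2A1 (log2) over the genes tested on each chromosome, from the fit over both batches (diamonds) and within batch 1 (circles) and batch 2 (squares). Lower panel, percentage of those genes called risen (above 0) and fallen (below 0), with the highest fallen shares on chromosomes 12, 14 and 16 and the highest risen share on chromosome 15.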

How the data were processed

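RNA from 8 cultures was hybridised by the authors to Illumina MouseWG-6 v2.0 beadchips, 1 colour per array, in 2 batches named in the labels. The deposited table gives, per probe and array, an intensity not normalized between arrays and a detection p-value, so precision is limited by how many arrays there are. The authors' processed values, deposited on a log2 scale with the batch removed, were made with lumi (variance stabilization, robust spline normalization) and ComBat and were used as an alternative only; their log base was taken from their range. For lumi, no version is given in the sources used here.

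Intensities were background-corrected with neqc (normexp on negative controls inferred from the detection p, quantile normalization, offset 16) in limma 3.58.1 under R 4.3.3. Of 45281 probes 16462 had a detection p of at most 0.01 on at least 1 array. Of these 14107 named 1 gene, 6 named several and 2349 named none. The probe of largest interquartile range stood for each gene. Symbols of 9003 of the 9017 genes matched RefSeq and none was updated. One limma model with line and batch was fitted to all 8 arrays (4 residual degrees of freedom), so that D2A1-m1, with 2 arrays, shares the spread of the other lines. P-values were Benjamini-Hochberg adjusted over all genes. In simulated data of 9017 genes for D2A1-m1 over D2A1, 31 of 67 changes of 0.6, 64 of 67 of 1 and 66 of 66 of 2 (log2) were recovered, with 11 false calls. The simulated noise was independent and normal, with the fit's own spread and an additive batch, so it met the model's assumptions. Far fewer genes were changed in it than were called in the data, so the 11 false calls give no error rate for those calls. P-values measure the spread between cultures of each line.

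Named genes are the 12 largest rises and falls over D2A1 with the same direction in both batches, the 8 largest rises and falls against both D2A1 and D2A1-m2, up to 4 called members per list and direction, and list members whose role is described. Members and lists were chosen with earlier results of these data known. Alternatives changed the model's samples and batch term, background, offset, scaling, detection filter, probe and prior, and left out each array. Others used the authors' processed values with limma or with a t-test rebuilt after the methods. Columns of other samples were 0 in number. One gene list is not reported here.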

Additional observations from a re-analysis of the deposited data

Results flagged for a closer look

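For 16 genes called over D2A1, the change in D2A1-m1 was the larger by the contrast of D2A1-m1 and D2A1-m2 in the limma fit over all genes, which selected them. Scara5, Mgp, Chst1, Gsdmd and Rgcc were also called risen and Ptx3, Cyp2c55, Shroom2 and Slc40a1 also called fallen in D2A1-m2 relative to D2A1, so for these the contrast shows a difference in size. The differences given are D2A1-m1 minus D2A1-m2 on the log2 scale. Genes higher in D2A1-m1 were Ifi27l2a (3.11), Scara5 (2.47), Mgp (2.05), Ly6c1 (1.95), Chst1 (1.94), Notum (1.60), Gsdmd (1.58) and Rgcc (1.49). Ifi27l2a, an interferon-inducible gene of mitochondria, was at 10.60 and 11.74 in D2A1-m1, at 8.53, 7.93 and 8.01 in D2A1-m2 and at 8.72, 7.62 and 9.48 in D2A1, so that D2A1-m2 overlapped D2A1. Genes lower in D2A1-m1 were Ptx3 (-3.38), Fhl1 (-2.17), Cyp2c55 (-1.81), Shroom2 (-1.80), Tpd52 (-1.59), Ctsw (-1.52), Slc40a1 (-1.51) and Macc1 (-1.43). Ptx3, Fhl1, Cyp2c55 and Shroom2 were not detected on either D2A1-m1 array, so their differences are fitted values near the floor, and the lower bounds on the fold were 5.54, 2.18, 2.15 and 2.01. Cyp2c55, a cytochrome P450, was at 4.50 and 4.57 in D2A1-m1, at 6.55, 6.28 and 6.20 in D2A1-m2 and at 7.37, 7.07 and 7.32 in D2A1. Shroom2, which organizes junctional actin, was at 4.49 and 4.38 in D2A1-m1, at 6.08, 6.49 and 6.17 in D2A1-m2 and at 7.83, 8.08 and 7.90 in D2A1. In addition, 260 detected probes that name no gene or several genes were called between D2A1-m1 and D2A1 in the same fit and enter no gene count.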

How the results depend on the processing

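With batch 1 alone the number of genes called was 168 (118 risen, 50 fallen), and 0 between D2A1-m1 and D2A1-m2, where 432 genes had an unadjusted p under 0.05. With limma on the authors' processed values it was 359 (205 risen, 154 fallen), and 93 against D2A1-m2. A t-test rebuilt here after the methods, with pooled variance, called 31 (21 risen, 10 fallen) on the same values. It used the methods' threshold of 0.001 without adjustment and a change of at least 1.5-fold. Against D2A1-m2 it called 15. After Benjamini-Hochberg adjustment it called 0 (0 risen, 0 fallen) and 0 against D2A1-m2, with 2636 and 2022 genes at an unadjusted p under 0.05, of which 323 and 102 also changed by at least 1.5-fold. The counts of this rebuilt t-test are not those of the study's own test. Without the batch term 410 genes were fallen and 70 differed from D2A1-m2. Median scaling gave 1073 risen and 378 fallen. Against D2A1-m2 the count was 214 without the detection filter, 252 with no background correction and also 252 when the offset was 50. The cause was not tested in any of these cases.

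Leaving out 1 array at a time gave 498 to 1475 genes changed, 290 to 788 risen, 208 to 687 fallen and 32 to 545 different from D2A1-m2. Of the genes called, 485 were shared with the full fit without D2A1-m1 replicate 1 and 682 without D2A1-m1 replicate 2. Where 1 D2A1-m1 array was left, it was assumed to vary like the arrays of the other lines. Of 216 named genes 113 kept their call whichever single array was left out, and 53 kept it under every alternative run in which they were tested, the t-tests left out. With batch 1 alone 143 of the 216 lost the call, and on the authors' processed values under limma 107 lost it and 3 changed direction.

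Whether the replicate number pairs the samples could not be told. Deviations from the line means were compared without removing the batch, so a shared batch and a shared number cannot be separated. Same-numbered arrays had r from 0.33 to 0.71 within a batch, and -0.30 and -0.17 across batches. Putting the replicate block into the fit instead of the batch gave 1362 genes against D2A1 and 97 against D2A1-m2, and the replicate block with the batch gave 1365 and 464.

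A few directions changed. Ctnnb1 was at 0.40 with the probe of highest mean. Ndufab1 was at -0.21 in the authors' processed values, under limma and the rebuilt t-test, and at -0.24 with the probe of highest mean. For Ndufb8 these were -0.048 and -0.13, and for Pvr -0.0099 and -0.18. No other named gene changed direction under an alternative run. Signal over background limits the folds of genes undetected in one line to lower bounds.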
